A study of Arabidopsis thaliana with 12 samples.

Results

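SNAP33 is a SNARE protein of the plasma membrane and the cell plate, related to SNAP25 of animals. SNAREs on vesicles and on target membranes wind into a bundle that draws both membranes together. SNAP33 pairs with syntaxins such as KNOLLE, at the dividing plane, and PEN1, at the surface, so it serves both cytokinesis and the delivery of proteins, wall material and membrane to the cell surface. Plants without it are known to be small and to develop lesions. The comparison here asks which genes differ in whole snap33 seedlings before the rosette has formed, with most weight on gene families other than those of defence and jasmonate.

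The snap33 group at 5 d holds 3 libraries of seedlings that carry a T-DNA insertion labelled as a knock-out, and the wild-type group holds 3 libraries of the same age. These 6 libraries are part of a series of 12, whose other 6 hold both genotypes at 12 d. All plants grew untreated on solid medium under long days of 16 h light, and both groups were sown on 29 March and harvested 5, 6 and 7 days later, 1 replicate of each genotype on each day. RNA of whole seedlings was selected for poly(A) and made into stranded libraries. The genotype field of the wild-type libraries at 5 d repeats the description of the mutant, so the groups rest on the sample titles and the counts of SNAP33 were read first. SNAP33 (AT5G61210) had 1, 3 and 8 reads in the snap33 libraries, against 95, 109 and 95 reads in the wild-type libraries. The libraries labelled snap33 therefore hold far fewer SNAP33 reads than any wild-type library (log2 fold change -4.48, SE 0.31, adjusted p = 9.65e-09, edgeR quasi-likelihood test with Benjamini-Hochberg adjustment, as in all tests here), and the gene overlaps an antisense gene over 257 bases.

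Reads assigned to genes came to 4304441 to 4813508 per snap33 library and 4551031 to 5330351 per wild-type library. Levels are given as CPM, counts scaled to a common library size with TMM factors and not corrected for gene length, so they compare libraries for 1 gene and not genes with each other. The summed CPM of the light-harvesting LHCB genes, which mark green tissue, ran from 14595 to 18354 in snap33 and from 13727 to 17492 in wild type, so the groups overlapped. Replicates are described as biological, but nothing says that they came from separate plates or seed batches. The p-values thus measure the spread between these samples, which may be partly technical and also holds any difference between harvest days.

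Of 18830 genes with enough reads to be tested, 2445 differed between snap33 and wild type at an adjusted p under 0.05, which is 13% of the genes tested. Higher in snap33 were 1547 genes (8.22% of those tested), and lower were 898 (4.77%). The larger changes were those of higher genes: 574 of them rose at least 2-fold and 161 at least 4-fold, whereas 132 of the lower genes fell at least 2-fold and 13 at least 4-fold. The median log2 fold change was 0.81 among the higher genes, -0.60 among the lower genes and -0.00 over all genes tested. Every call was repeated under 13 other settings (another tool, other scalings and filters, a term for harvest day, and each library left out in turn), and 987 genes (5.24%) were called under all of them, 772 higher and 215 lower. Of the higher calls 49.9% held under every setting, and of the lower calls 23.9%. With upper-quartile scaling the median of all genes was -0.046 and the split became 1381 higher and 1195 lower, so that 53.6% of the calls were higher genes with that scaling and 63.3% with TMM. With a term for harvest day 489 genes were called lower in place of 898, and without wild-type replicate 2 the calls were 1018 higher and 450 lower.

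Genes were read in 67 lists of families, pathways and cell types beside a list of 86 defence and jasmonate genes, which was set aside. Genes of it that also belong to another list still count there. These were 6 cytochromes P450 and 1 gene each among glycosyltransferases, ERF and DREB factors and GH3 acyl amido synthetases. That set-aside list had 54 higher members and 1 lower member and a median log2 fold change of 1.38. Among the other lists, calls were mostly higher in those of low-energy responses, myrosinases and their partners, sugar and starch turnover, glycosyltransferases and ERF factors, and mostly lower in those of ribosomal proteins, extensins and root hair genes. The counts are given with each list, and the background for them is 8.22% higher and 4.77% lower over all genes tested. Separation of the groups has a background as well. For 6025 of the 18830 tested genes (32%), called or not, every snap33 value lay on the same side of every wild-type value. Separate groups, as reported below for single genes, are thus a common property and weak evidence when taken alone.

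**Figure D1:**
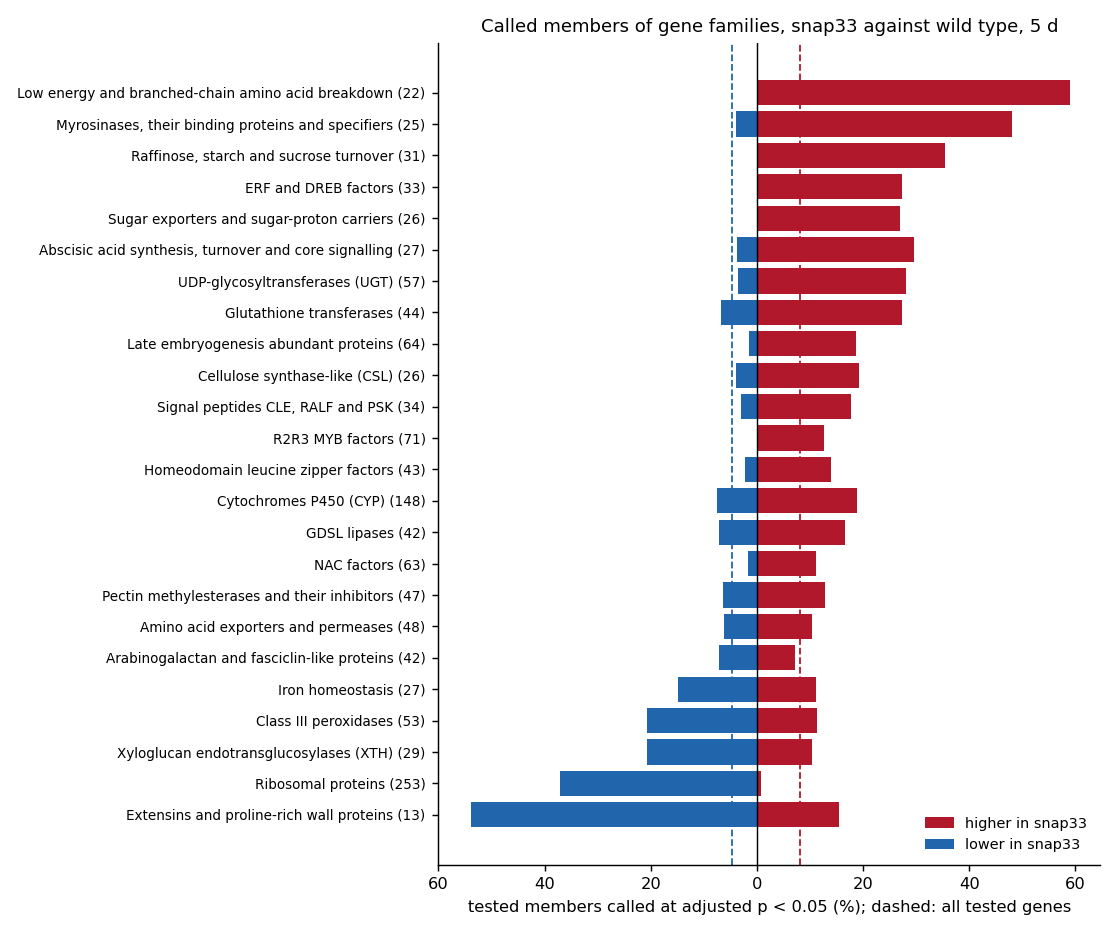
Share of tested members of each gene list that were called higher (right of 0) or lower (left of 0) in snap33 than in wild type at 5 d, for the 24 lists with at least 6 called members; the dashed lines mark the shares over all 18830 tested genes, 8.22% higher and 4.77% lower. Low-energy genes have the largest share of higher members plotted and no lower member, and extensins have the largest share of lower members.

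The genes that stood furthest from wild type, outside the set-aside list, coded for proteins of many kinds, among them lectins, enzymes, a MYB factor and a hemicellulose synthase. Ranked genes are those called under every setting whose groups did not overlap and whose higher group averaged at least 5 CPM. For ranked genes of either direction, separate groups were thus a condition of the choice and not a result. CSLA01 (AT4G16590), a cellulose synthase-like protein of the A group, whose members make mannan backbones, had 73.5, 69.1 and 50.5 CPM in snap33, against 0.22, 0 and 0 CPM in wild type. It was thus close to silent in every wild-type library, with 834 reads over the snap33 group and 1 over the wild-type group (ratio 908, exact 95% interval 163 to 35921, counting error only). FAMT (AT3G44860), a methyltransferase of farnesoic acid, had 204 reads in the snap33 libraries together and 0 in the wild-type libraries, so it was at least 74.1-fold higher, with a floor of 3 counts for the wild-type group. AT1G14250, annotated as a nucleoside phosphatase of the GDA1/CD39 group, had 66.2, 60.2 and 37.2 CPM in snap33, against 0.67, 0.98 and 0.67 CPM in wild type (log2 fold change 6.08, SE 0.33, adjusted p = 2.98e-10). No snap33 library came near a wild-type library for it. The acetyltransferase gene NATA1, whose enzyme acetylates ornithine, had 75 reads in snap33 and 2 in wild type (ratio 40.8, interval 10.9 to 343). The GDSL lipase gene AT1G54020 had 127 reads in snap33 and 2 in wild type (ratio 69.2, interval 18.8 to 577).

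The 12 genes furthest in the other direction had much smaller differences. GASA5 (AT3G02885), a small cysteine-rich peptide of a family regulated by gibberellin, had 1.98, 2.4 and 1.19 CPM in snap33, against 31.5, 14.9 and 30.8 CPM in wild type. Its groups lay far apart (13.6-fold lower, log2 fold change -3.76, SE 0.33, adjusted p = 2.95e-07), while no other of the 6 tested GASA genes was called. The pectin lyase-like gene AT5G14650, annotated in a family of pectin-degrading enzymes, had 3 reads in the snap33 libraries together and 71 in the wild-type ones (21.7-fold lower, exact 95% interval 7.14 to 108). The glutaredoxin gene AT2G47880 had 0.44, 1.44 and 0.95 CPM in snap33, against 4.69, 3.14 and 7.37 CPM in wild type, a 5.26-fold lower level (adjusted p = 0.00129), and it overlaps an antisense gene over 243 bases. G6PD3, a plastid glucose-6-phosphate dehydrogenase that feeds the pentose phosphate pathway, had 5.72, 7.92 and 4.05 CPM in snap33, against 16.5, 18 and 20.3 CPM in wild type, with no overlap (3.1-fold lower, adjusted p = 0.000121, 315 bases of overlap with an antisense gene). The others of the 12 were SNAP33, the peroxidase AT4G08780, the acyl carrier protein desaturase FTM1, the pectin methylesterase inhibitor-like AT1G62770, the receptor kinase CRK30, AT4G10270, AT1G14960 and AT1G73580, which were 3.09-fold to 3.81-fold lower apart from SNAP33 itself.

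Myrosinases are β-glucosidases that split glucosinolates, the sulfur-containing defence metabolites of the cabbage family, when tissue is damaged, and jacalin-like lectins bind to them or steer the products. Of 25 tested genes for myrosinases, related β-glucosidases, binding proteins and specifiers, 12 were higher in snap33 and 1 was lower, with a median log2 fold change of 0.27. Their summed CPM was 8306, 7764 and 7110 in snap33, against 5743, 5955 and 5560 in wild type, so every snap33 library was above every wild-type library. Without wild-type replicate 3 the higher members numbered 7. BGLU18 (AT1G52400), a β-glucosidase of endoplasmic reticulum bodies that can also release abscisic acid from its glucose ester, had 880.1, 772 and 459 CPM in snap33, against 34.6, 30.8 and 38.4 CPM in wild type. That was 20.4-fold higher (log2 fold change 4.35, SE 0.19, adjusted p = 2.9e-11), with snap33 replicate 3 the lowest of its group. MBP1 (AT1G52040), a myrosinase-binding protein, had 117, 155 and 79.9 CPM in snap33, against 0.22, 0.2 and 0.67 CPM in wild type. MBP2 (AT1G52030), its neighbour on the chromosome, had 30.6, 38.6 and 19.1 CPM in snap33, against 0, 0.2 and 0.89 CPM in wild type. Both genes were thus almost silent in wild type, and their log2 fold changes were 8.27 (SE 0.37) for MBP1 and 6.27 (SE 0.58) for MBP2. JAL23, a jacalin-related lectin, had 30.6, 40.8 and 15.7 CPM in snap33, against 0.45, 0.2 and 0.22 CPM in wild type. BGLU18, MBP1, MBP2 and JAL23 are ranked genes, chosen among those with separate groups. JR1, a jacalin-like lectin, had 294, 286 and 207 CPM in snap33, against 103, 89.4 and 106 CPM in wild type, a 2.64-fold rise, and overlaps an antisense gene over 631 bases.

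Some lectins outside that list changed too. Of 20 tested genes annotated as mannose-binding lectins, 5 were higher, 1 was lower and 14 were not called (median log2 fold change 0.11). This group was formed after the values were seen and shares JR1 with the list above. AT1G52000, annotated as a mannose-binding lectin, had 392, 519.9 and 312 CPM in snap33, against 11.4, 7.06 and 10.7 CPM in wild type (42.2-fold, adjusted p = 4.24e-11). The lectin gene AT1G73040 had 8.36, 3.12 and 9.77 CPM in snap33, against 0.22, 0.59 and 0.22 CPM in wild type. Both are ranked genes, for which separate groups were required. In both the lowest snap33 library exceeded the highest wild-type library several times over. The lower lectin was AT2G25980 (log2 fold change -0.67, adjusted p = 0.0108), which was not called under every setting. The only lower member of the myrosinase list was GLL22, a GDSL lipase-like protein, at 35.9, 51.1 and 55.3 CPM in snap33, against 69.2, 87.6 and 77.7 CPM in wild type (log2 fold change -0.72, adjusted p = 0.00495). Many genes of this group, BGLU18, MBP1, MBP2 and JR1 among them, are known to respond to jasmonate or wounding, so this family is not fully separate from the set-aside list.

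The 250 bases upstream of the annotated start were read from the TAIR10.1 genome for 18729 of the tested genes. The G-box CACGTG, which MYC and related bHLH factors bind, occurred on either strand in 7.49% of all promoters, in 11.3% of those of higher genes and in 5.57% of those of lower genes. Among promoters of genes called at least 4-fold higher under every setting, 17 of 101 held it (16.8%), and the weaker variant CACATG was in 19.8% of them and in 11.2% of all. Members of the set-aside defence and jasmonate list were not left out of these sets of higher genes. The GCC-box GCCGCC, which ERF factors bind, was in 1.94% of higher genes and 1.93% of all. A match is a description of letters and not a binding site, and no test was made. These promoters belong to 2 of the genes above with the smallest p, with the G-box and its variant (read as CATGTG on the printed strand) in capitals, 5′ to 3′ and ending at the base before the annotated start:
MBP1, chr1:19352792-19353041, minus strand: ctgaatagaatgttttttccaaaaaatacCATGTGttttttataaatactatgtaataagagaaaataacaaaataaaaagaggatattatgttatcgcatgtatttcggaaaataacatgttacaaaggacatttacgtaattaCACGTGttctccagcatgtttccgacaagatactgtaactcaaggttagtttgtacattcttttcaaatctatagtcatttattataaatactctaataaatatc
AT1G52000, chr1:19336136-19336385, minus strand: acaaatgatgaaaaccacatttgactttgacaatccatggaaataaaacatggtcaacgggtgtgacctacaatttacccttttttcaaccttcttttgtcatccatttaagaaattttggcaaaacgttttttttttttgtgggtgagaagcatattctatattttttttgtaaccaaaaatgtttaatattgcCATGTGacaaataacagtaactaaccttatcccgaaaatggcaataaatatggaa
The MBP1 window holds 1 G-box at 105 bases upstream and 1 variant, and that of AT1G52000 holds 1 variant at 55 bases, while that of BGLU18 holds neither.

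**Figure D2:**
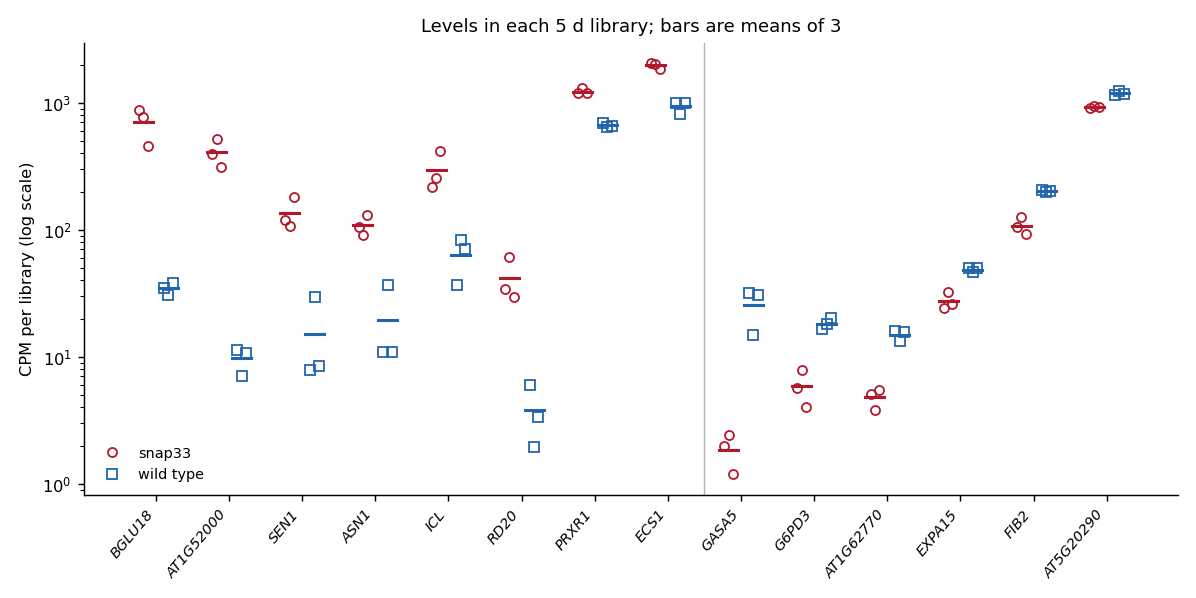
CPM on a log axis in each of the 3 snap33 libraries (left in each pair) and the 3 wild-type libraries at 5 d for genes described in the text and for FIB2, a fibrillarin gene picked after its values were seen; each point is 1 library and each bar a mean, with higher genes left of the vertical line and lower genes right of it. BGLU18 lies between 459 and 880.1 CPM in snap33 and between 30.8 and 38.4 CPM in wild type, and GASA5 lies between 1.19 and 2.4 CPM in snap33 and between 14.9 and 31.5 CPM in wild type.

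Plants short of sugar turn on a set of genes that conserve carbon and draw energy from amino acids, many of them first found as dark-inducible (DIN) or sugar-repressed genes and known as targets of the SnRK1 kinase and bZIP factors. Of 22 members of a list of such low-energy genes and of enzymes that break down branched-chain amino acids, all 22 were tested, 13 were higher in snap33 and 0 were lower, with a median log2 fold change of 0.72. No member was lower by DESeq2 either, and 1 was lower at an unadjusted p under 0.05. The count of higher members stayed between 11 and 15 under the 13 other settings, and 10 members were called under all of them. Their summed CPM was 1108, 1003 and 1317 in snap33, against 625, 727 and 629 in wild type. SEN1 (AT4G35770, also DIN1), a senescence and dark marker, had 120.4, 107 and 182 CPM in snap33, against 7.81, 29.4 and 8.48 CPM in wild type (8.77-fold, adjusted p = 7.28e-06). ASN1 (DIN6), which stores nitrogen as asparagine when carbon is short, had 106, 90.7 and 131 CPM in snap33, against 10.9, 36.5 and 10.9 CPM in wild type (5.52-fold, adjusted p = 3.19e-05). BCAT-2, a transaminase that starts the breakdown of leucine, isoleucine and valine, had 15.6, 11 and 18.6 CPM in snap33, against 0.45, 3.33 and 2.01 CPM in wild type. THA1, a threonine aldolase, had 26, 18 and 42.4 CPM in snap33, against 3.13, 9.61 and 2.9 CPM in wild type. In all 4 genes the groups did not overlap, and wild-type replicate 2 was the highest of its group and snap33 replicate 2 the lowest of its own, both harvested on the same day.

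**Figure D3:**
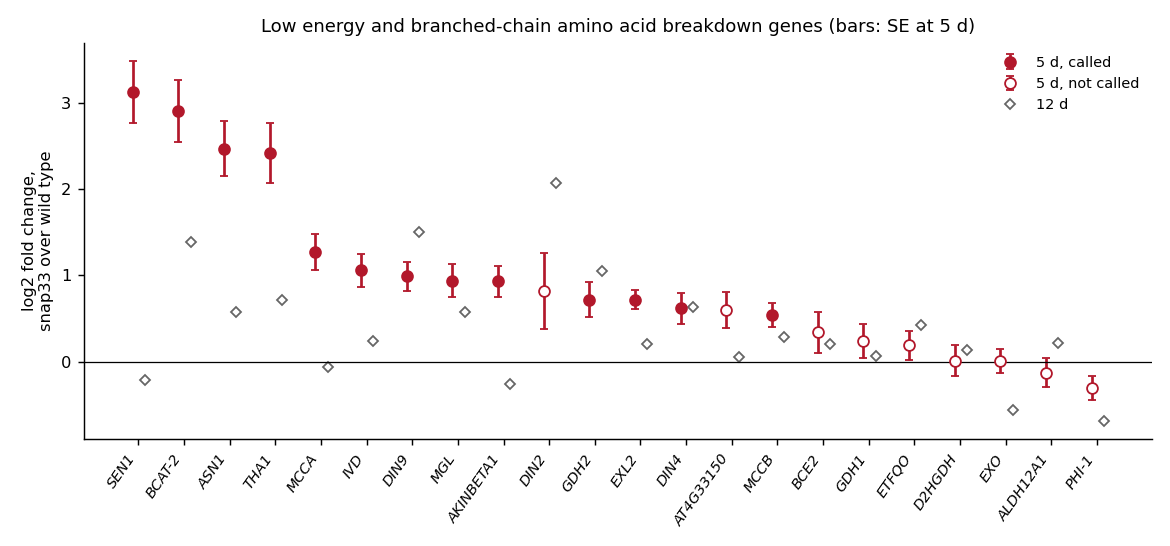
Log2 fold change of snap33 over wild type at 5 d, with its standard error, for the 22 genes of the low-energy and branched-chain amino acid list; filled circles were called, open circles were not, and open diamonds show the log2 fold change at 12 d. SEN1, at 3.13, BCAT-2, at 2.91, ASN1, at 2.47, and THA1, at 2.42, lie furthest from 0.

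Some genes for the use of stored carbon and for sugar transport were also higher, although most members of these lists were not called. Of 31 tested genes for raffinose, starch and sucrose turnover 11 were higher and 0 lower (1 lower at an unadjusted p under 0.05, 0 by DESeq2, median log2 fold change 0.33), and the higher ones numbered 6 without wild-type replicate 2 and 7 without replicate 3. APL3, a large subunit of the enzyme that makes ADP-glucose for starch, had 18.9, 19.2 and 22.4 CPM in snap33, against 5.8, 6.86 and 7.14 CPM in wild type (3.04-fold, adjusted p = 2.01e-06). PHS2, a glucan phosphorylase of the cytosol, had 29, 27.1 and 23.1 CPM in snap33, against 13.2, 12 and 10.5 CPM in wild type. SEX1, the glucan water dikinase that opens starch to breakdown, had 39.4, 36 and 40 CPM in snap33, against 25.9, 22.9 and 22.3 CPM in wild type. Genes of both starch synthesis and starch breakdown thus rose, and in each the groups were separate. DIN10, annotated as a raffinose synthase, had 108, 83.2 and 158 CPM in snap33, against 48.2, 59 and 43.1 CPM in wild type (2.31-fold).

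Of 26 tested sugar carriers, from 44 members, 7 were higher and 0 lower, with a median log2 fold change of 0.47 (1 lower at an unadjusted p under 0.05, 0 by DESeq2). STP1, a hexose and proton carrier of the plasma membrane, had 159.7, 142 and 181 CPM in snap33, against 71, 79 and 69.9 CPM in wild type (2.2-fold, adjusted p = 3.28e-06, 438 antisense bases). SWEET1, a glucose uniporter, had 147, 149 and 131 CPM in snap33, against 76.6, 72.3 and 83.3 CPM in wild type. SWEET13, a sucrose exporter, had 9.9, 11.8 and 9.06 CPM in snap33, against 3.35, 2.74 and 2.01 CPM in wild type. No snap33 library of these carriers overlapped a wild-type library, and STP14, a galactose carrier, was 2.97-fold higher.

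Seedlings mobilise seed oil through β-oxidation and the glyoxylate cycle, and 4 of the 21 tested genes of these pathways were higher and 0 lower (1 lower at an unadjusted p under 0.05, 0 by DESeq2, median log2 fold change 0.13). ICL, the isocitrate lyase that is specific to the glyoxylate cycle, had 218, 256 and 414 CPM in snap33, against 36.6, 83.7 and 70.6 CPM in wild type (4.63-fold, log2 fold change 2.21, SE 0.29, adjusted p = 4.43e-05). PCK1, which leads its products towards sugar, had 130.3, 132 and 112 CPM in snap33, against 92.7, 90.6 and 79 CPM in wild type. The other 2 higher genes, the oil body lipase SDP1 and the thiolase KAT5, were 1.41-fold and 1.38-fold higher but were not called under every setting, and the list had 2 higher members without wild-type replicate 2 or without snap33 replicate 3. Of 22 genes for seed storage and oil body proteins only 6 had enough reads to be tested, and 3 of these were higher. RD20, a caleosin that binds calcium on lipid droplets and is induced by drought, had 34.3, 60.9 and 29.6 CPM in snap33, against 6.03, 1.96 and 3.35 CPM in wild type (11.1-fold, adjusted p = 3.28e-06). CLO4, another caleosin, was 1.76-fold higher, and the cupin PAP85 was 3.15-fold higher at no more than 7.15 CPM in any library. Of 64 tested genes annotated as late embryogenesis abundant proteins or their relatives 12 were higher and 1 was lower, and 5 were higher without wild-type replicate 2. These genes were taken by product name and not by expression in seeds. The higher members AT4G05220, AT5G53730 and AT1G08160 are annotated as hydroxyproline-rich glycoproteins of that name.

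The list with the most lower calls was that of ribosomal proteins. Ribosomes are built from RNA and a set of proteins whose genes are usually expressed together and most strongly in growing cells, and each protein has several gene copies in Arabidopsis. Of 253 tested genes annotated as ribosomal proteins 94 were lower in snap33 and 2 were higher, with a median log2 fold change of -0.32. Their summed CPM was 68787, 69091 and 67460 in snap33, against 79929, 86783 and 82898 in wild type, so the groups did not overlap. The single differences were small and the count of calls moved with the processing: 22 of the 94 were called under every setting, 43 were lower with a term for harvest day, 35 without snap33 replicate 3, 39 without wild-type replicate 3, 40 without wild-type replicate 2, 46 without snap33 replicate 1, and 129 with upper-quartile scaling. AT5G20290, of the S8e family of the small subunit, had 918, 936 and 927 CPM in snap33, against 1143, 1238 and 1178 CPM in wild type (log2 fold change -0.36, SE 0.08, adjusted p = 0.00664). AT4G33865, of the S14p/S29e family, had 696, 743 and 670.3 CPM in snap33, against 898, 963 and 952 CPM in wild type. AT3G08520, of the L41 family of the large subunit, had 388, 401 and 377 CPM in snap33, against 493, 531 and 505 CPM in wild type. Within each of these genes the replicates differed little and the groups were apart by more than their spread.

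Larger decreases were seen for AT4G36130, of the L2 family, which had 137, 127 and 125 CPM in snap33, against 193, 231 and 216 CPM in wild type (1.64-fold lower, adjusted p = 0.000586, 295 antisense bases). AT3G55750, of the L35Ae family, had 193, 183 and 182 CPM in snap33, against 275, 288 and 289 CPM in wild type. NFD1, a ribosomal protein of the L21 family known from female gametophyte development, and AT3G58660, of the L1p/L10e family, had log2 fold changes of -0.65 and -0.63. The list was formed by product name, so its members need not all belong to cytosolic ribosomes. The 2 higher members, AT1G53560 and RPL18AA (log2 fold changes 0.61 and 0.45), both belong to the L18ae group, and RPL18AA shares 1112 bases on the same strand with another annotated gene. In whole seedlings, fewer cells with many ribosomes and less RNA for ribosomal proteins in each cell cannot be told apart, and reads of near-identical copies cannot be divided with certainty.

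**Figure D4:**
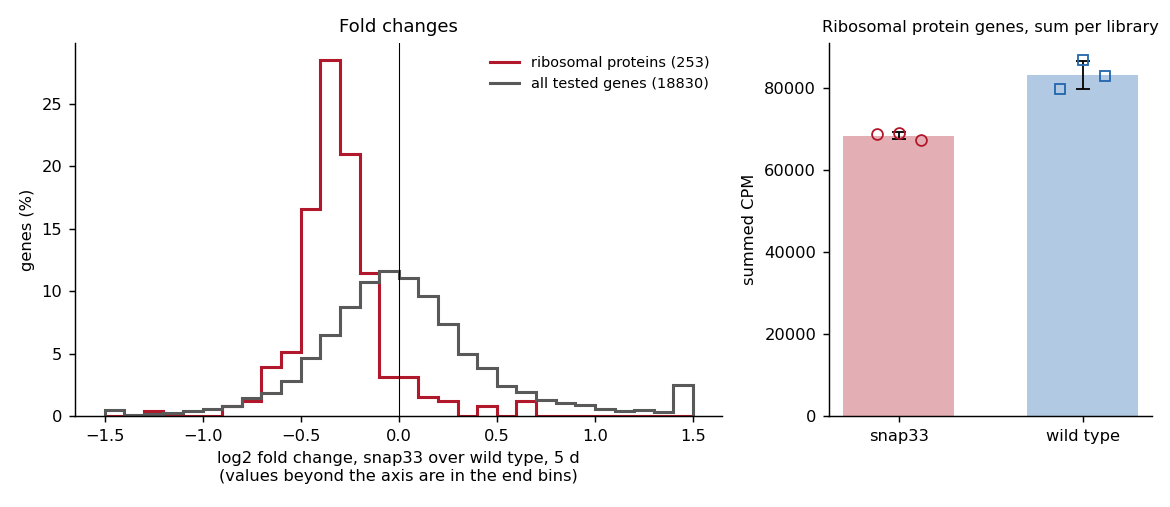
Left, distribution of the log2 fold change of snap33 over wild type at 5 d for the 253 tested ribosomal protein genes and for all 18830 tested genes; right, summed CPM of those genes in each library (points), with the mean (bar) and SD, snap33 left of wild type. The ribosomal genes are centred at -0.32 and all genes at -0.00, and the 3 snap33 sums, from 67460 to 69091, lie below the 3 wild-type sums, from 79929 to 86783.

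Promoters of plant ribosomal protein genes are known for 2 short elements, site II, to which TCP factors bind, and the telo-box. Site II, searched as TGGGCC or TGGGCT on both strands, was in 22.4% of all promoters of 250 bases, in 33.4% of those of lower genes and in 11.4% of those of higher genes. Of the ribosomal protein genes tested, 57.7% held it, with 60.6% among the lower ones and 56.1% among those not called. The telo-box AAACCCTA was in 3.65% of all promoters, in 9.47% of those of lower genes and in 1.29% of those of higher genes, and in 13.8% of ribosomal protein genes. Within the family, the telo-box was in 18.1% of the lower members and 11.5% of those not called, and no test was made of these shares. The 3 genes with the highest CPM among the 22 lower ribosomal protein genes called under every setting are shown, with site II (or GGCCCA and AGCCCA, its reverse) and the telo-box (TAGGGTTT on the printed strand) in capitals:
AT5G20290, chr5:6853107-6853356, minus strand: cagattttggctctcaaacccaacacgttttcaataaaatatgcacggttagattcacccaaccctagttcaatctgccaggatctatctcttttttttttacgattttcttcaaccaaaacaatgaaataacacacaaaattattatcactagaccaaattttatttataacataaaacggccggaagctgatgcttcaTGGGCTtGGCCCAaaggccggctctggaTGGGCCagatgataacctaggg
AT4G33865, chr4:16234274-16234523, minus strand: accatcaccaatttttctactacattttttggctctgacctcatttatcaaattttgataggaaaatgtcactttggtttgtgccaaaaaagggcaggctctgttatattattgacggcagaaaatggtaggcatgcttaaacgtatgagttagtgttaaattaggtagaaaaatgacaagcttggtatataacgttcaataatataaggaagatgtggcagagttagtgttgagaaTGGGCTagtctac
AT3G08520, chr3:2585751-2586000, plus strand: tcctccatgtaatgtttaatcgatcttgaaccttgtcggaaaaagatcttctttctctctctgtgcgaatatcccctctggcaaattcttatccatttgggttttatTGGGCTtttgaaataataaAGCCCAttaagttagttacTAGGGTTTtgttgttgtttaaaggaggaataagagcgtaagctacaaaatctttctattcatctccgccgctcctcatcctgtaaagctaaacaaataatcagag
The first holds 3 site II matches, the closest 22 bases upstream of the start, the second holds 1 at 13 bases, and the third holds 2 with a telo-box.

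Wall genes changed in both directions. Plant cells grow by loosening a wall of cellulose, xyloglucan and pectin, and SNAP33 is part of the machinery that delivers wall proteins and polysaccharides. XTH enzymes cut and rejoin xyloglucan: of 29 tested, 3 were higher and 6 lower (median log2 fold change -0.20). XTH25 had 10.8, 20.2 and 12.4 CPM in snap33, against 2.01, 0.39 and 0.89 CPM in wild type (13.2-fold, adjusted p = 2.56e-05). XTH24 had 246, 227 and 334 CPM in snap33, against 142, 136 and 152 CPM in wild type (1.88-fold). Among those that fell, XTH33 had 6.16, 5.04 and 3.81 CPM in snap33, against 12.3, 12.3 and 12.9 CPM in wild type. XTH5 had 7.7, 8.64 and 8.58 CPM in snap33, against 21.4, 18.6 and 17.4 CPM in wild type, and XTH17 fell 1.58-fold. In all 5 genes the 3 libraries of each genotype stayed apart, as those of 32% of all tested genes did.

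Expansins loosen walls without cutting them, and 1 of the 21 tested was higher and 4 were lower. EXPA15 had 24.4, 32.6 and 26 CPM in snap33, against 50, 46.1 and 49.6 CPM in wild type (log2 fold change -0.81, adjusted p = 0.00197), and EXPA17 was 2.36-fold lower, whereas EXPA4 was 1.64-fold higher. The lower expansins numbered 2 without wild-type replicate 2, without wild-type replicate 3 or without snap33 replicate 1. Extensins and proline-rich proteins are rod-like structural proteins of the wall: of 13 tested, 7 were lower and 2 were higher, with a median log2 fold change of -0.93. The summed CPM of the list was not lower, at 2223, 2200 and 2671 in snap33, against 2087, 2314 and 2189 in wild type, with an overlap. EXT6 had 2.64, 8.64 and 6.91 CPM in snap33, against 8.48, 18.8 and 19 CPM in wild type, with an overlap, and EXT13 had a log2 fold change of -1.01. In both genotypes replicate 1 was the lowest of its group for EXT6, and none of the 7 lower members remained called without wild-type replicate 2 or without snap33 replicate 1. The 2 higher members were EXT4, at 1.4-fold, and PRP4, at 1.21-fold.

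Among 9 tested root hair genes 5 were lower and 0 were higher (0 higher also at an unadjusted p under 0.05 and by DESeq2), with a median log2 fold change of -0.79. DESeq2 called 3 of them lower. Several of them, such as PRP1, PRP3, LRX1 and EXPA18, are also structural or loosening proteins of the wall, so the lists overlap. Their summed CPM was 40.3, 61.7 and 56 in snap33, against 71.7, 107 and 85.5 in wild type, so the groups were separate but each varied widely. PRP3 had 7.26, 12.2 and 12.4 CPM in snap33, against 14.3, 24.3 and 23.7 CPM in wild type. None of the 5 was called under every setting, and 0 were called without wild-type replicate 2 or without snap33 replicate 1. The share of root in the seedlings was not measured, so whether fewer root hair cells or less RNA per cell lies behind these values was not tested.

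Class III peroxidases cross-link or loosen wall polymers. Of 53 tested, 11 were lower and 6 higher (median log2 fold change -0.15), with 4 lower without snap33 replicate 1, 6 without wild-type replicate 2 and 7 without wild-type replicate 3. PRXR1 had 1191, 1296 and 1187 CPM in snap33, against 699, 646 and 659 CPM in wild type (1.83-fold, log2 fold change 0.87, SE 0.09, adjusted p = 2.6e-06). AT5G39580 was 2.74-fold higher. AT4G08780 had 1.54, 1.92 and 2.62 CPM in snap33, against 7.59, 8.23 and 7.37 CPM in wild type. It is a ranked gene, so its groups are separate by choice. AT4G11290, AT2G38390 and AT2G38380 fell by 0.84, 0.67 and 0.48 on the log2 scale.

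Pectin methylesterases and their inhibitors set the charge and stiffness of pectin, and of 47 tested, from 127 members, 6 were higher and 3 lower. AT2G01610 had 15.2, 18.5 and 11.2 CPM in snap33, against 4.24, 4.51 and 6.03 CPM in wild type (3.03-fold). ATPMEPCRB had 25.3, 47.5 and 24.1 CPM in snap33, against 80.8, 53.9 and 61 CPM in wild type (2.02-fold lower). The inhibitor-like AT1G62770 had 5.06, 3.84 and 5.48 CPM in snap33, against 15.9, 13.3 and 15.6 CPM in wild type. The 3 genes thus moved in different directions within 1 family, and each kept its groups apart, which the ranking required of AT1G62770. Of 26 tested cellulose synthase-like genes 5 were higher and 1 lower, and the higher ones numbered 3 without wild-type replicate 2. Of the higher genes, CSLA01, CSLA10, ATCSLA15 and CSLA11 belong to the A group. CSLA10 had 20.9, 15.8 and 8.82 CPM in snap33, against 0.89, 0.98 and 2.01 CPM in wild type (11.7-fold), and ATCSLA15 had 53.5, 51.8 and 30.5 CPM in snap33, against 8.93, 9.21 and 14.3 CPM in wild type (4.2-fold). All 3 snap33 libraries exceeded all wild-type libraries in these genes, and replicate 3 was the lowest snap33 library in each, as it was for CSLA01. None of the 8 tested cellulose synthases was called by edgeR or DESeq2 (median log2 fold change -0.05, 0 at an unadjusted p under 0.05). The arabinogalactan protein AGP1 had 213, 185 and 177 CPM in snap33, against 97.8, 92.5 and 109.8 CPM in wild type (1.92-fold), in a family with 3 higher and 3 lower of 42 tested, of which the lower ones numbered 0 or 1 with any library left out.

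In the families of cytochromes P450, glycosyltransferases and glutathione transferases, higher calls outnumbered lower ones. Cytochromes P450 are oxidases of small molecules, and of 148 tested, from 234 members, 28 were higher and 11 lower, with 18 and 2 called under every setting. The lower members numbered 7 with a term for harvest day and 4 to 6 when wild-type replicate 1, 2 or 3 or snap33 replicate 1 or 3 was left out. CYP710A2, a sterol desaturase that makes brassicasterol, had 207, 226 and 228 CPM in snap33, against 78.8, 65.7 and 83.1 CPM in wild type (2.9-fold, adjusted p = 3.75e-08). TT7, the flavonoid hydroxylase of anthocyanin synthesis, had 164, 147 and 179 CPM in snap33, against 58.5, 55.3 and 58.3 CPM in wild type (2.85-fold). CYP79B3, which starts indole glucosinolate synthesis from tryptophan, had 118, 115 and 96.1 CPM in snap33, against 49.8, 34.5 and 52.2 CPM in wild type. CYP83B1, the following enzyme of that pathway, was 1.95-fold higher, whereas CYP81F2, which modifies indole glucosinolates further, was 2.72-fold lower. The genes of 1 pathway did not move as a block, and each of these changes exceeded the spread of its replicates.

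UDP-glycosyltransferases add sugars to hormones and pigments, and of 57 tested 16 were higher and 2 lower (median log2 fold change 0.31), with 9 higher without wild-type replicate 2 or snap33 replicate 3. UF3GT, known to add xylose to anthocyanins, had 181, 195 and 183 CPM in snap33, against 79.7, 54.7 and 72.8 CPM in wild type (2.71-fold, adjusted p = 5e-06). UGT78D2, a flavonoid 3-O-glucosyltransferase, was 1.77-fold higher. UGT72E2, which adds glucose to monolignols, had 35.4, 31.4 and 33.4 CPM in snap33, against 74.8, 62.9 and 64.5 CPM in wild type (2.01-fold lower, adjusted p = 1.56e-05). In other lists, the MYB factor PAP1 and the bHLH factor TT8, both known to activate anthocyanin genes, were 2.39-fold and 2.26-fold higher, and the glutathione transferase GSTF12 was 1.97-fold higher. Anthocyanin genes were not tested as a list.

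Of 44 tested glutathione transferases, which couple glutathione to toxic or stored compounds, 12 were higher and 3 lower. GSTF4 had 73, 72 and 75.6 CPM in snap33, against 28.6, 28.8 and 30.8 CPM in wild type (2.5-fold, adjusted p = 8.25e-07, 1014 antisense bases). GSTF6 had 521, 318 and 324 CPM in snap33, against 172, 166 and 236 CPM in wild type (2.03-fold). Its neighbour GSTF7 had 18.7, 14.4 and 14.5 CPM in snap33, against 26.8, 29.6 and 46.4 CPM in wild type (2.15-fold lower). Both pairs of groups were separate, although reads of 2 such similar genes cannot be divided with certainty. GDSL lipases, esterases of the wall and cuticle, had 7 higher and 3 lower of 42 tested.

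Abscisic acid and ethylene-response genes were among the hormone lists with more higher than lower calls. Of 27 tested genes for the synthesis, turnover and signalling of abscisic acid, the hormone of water deficit, 8 were higher and 1 lower, with 4 or 5 higher when any wild-type library was left out. NCED3, which makes the rate-limiting cut of a carotenoid, had 4.62, 9.36 and 5.01 CPM in snap33, against 3.13, 2.16 and 1.56 CPM in wild type (2.74-fold, adjusted p = 0.00469). The phosphatase gene ABI1, a brake on the response that abscisic acid itself induces, had 26.8, 29.5 and 30 CPM in snap33, against 15.6, 16.3 and 13.6 CPM in wild type, and HAB1, another such phosphatase, was 1.72-fold higher. The lower member was the receptor PYL6 (1.7-fold). The homeodomain factor HB-7, induced by water deficit, had 132, 125 and 113 CPM in snap33, against 64.1, 45.1 and 62.5 CPM in wild type, and HB-12, its relative, was 1.75-fold higher, among 6 higher and 1 lower of 43 tested.

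Of 33 tested ERF and DREB factors, which act in ethylene and stress responses, 9 were higher and 0 lower (0 lower also at an unadjusted p under 0.05 and by DESeq2, median log2 fold change 0.48), with 5 higher under a term for harvest day, 5 without snap33 replicate 2 and 4 without wild-type replicate 3. ERF2 had 21.1, 48.7 and 21.2 CPM in snap33, against 2.9, 3.53 and 3.8 CPM in wild type (8.8-fold, adjusted p = 2.47e-06), and ERF13 had 7.04, 17.3 and 8.1 CPM in snap33, against 1.79, 0.98 and 1.34 CPM in wild type (7.81-fold). In both genes snap33 replicate 2 was the highest of its group by more than 2-fold, and the genotypes did not overlap. EBP had 179, 263 and 322 CPM in snap33, against 90.2, 113 and 118 CPM in wild type (2.38-fold). Of 71 tested MYB factors 9 were higher and 0 lower (4 lower at an unadjusted p under 0.05, 0 by DESeq2). MYB47 had 49.7, 74.4 and 44.3 CPM in snap33, against 3.35, 2.94 and 2.68 CPM in wild type (18.6-fold, adjusted p = 3.97e-10), and MYB95 rose 5-fold with 933 bases of antisense overlap. Of 63 tested NAC factors 7 were higher and 1 lower. NAP, a regulator of leaf senescence, had 5.5, 4.8 and 10 CPM in snap33, against 1.79, 1.18 and 1.12 CPM in wild type, and RD26, a drought-induced NAC factor, had 51, 48.2 and 65.1 CPM in snap33, against 27.5, 25.7 and 27.2 CPM in wild type. These factors kept the genotypes apart in every library, which the ranking required of MYB47.

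The lists of growth hormones and signal peptides held calls in both directions. The cytokinin list had 1 higher and 3 lower members of 24 tested, of which IPT3, an enzyme of cytokinin synthesis, had 18.9, 18.5 and 17.4 CPM in snap33, against 29.9, 28.4 and 32.2 CPM in wild type (1.65-fold lower). Auxin repressors of the Aux/IAA group had 1 higher (IAA28) and 1 lower (IAA19) of 20 tested, and SAUR genes 3 higher and 1 lower of 41. These calls are 10% and 9.76% of the genes tested in the 2 lists, below the 13% over all tested genes. Under every setting 0 of the Aux/IAA calls and 1 of the SAUR calls held. The auxin exporter EIR1 was 1.51-fold lower. GA2OX2, which inactivates gibberellin, was 2.5-fold higher, in a gibberellin list with 2 higher of 19 tested, 1 of them under every setting. ROT3, of brassinosteroid synthesis, was 1.83-fold higher and the only call among 15 tested, and it held under 8 of the 13 other settings. Among signal peptides 6 were higher and 1 lower of 34 tested, with 3 higher without wild-type replicate 2. PSK4, a precursor of the growth peptide phytosulfokine, had 82.5, 87.8 and 102 CPM in snap33, against 47.3, 43.5 and 45.1 CPM in wild type (2-fold), PSK5 was 1.77-fold higher, and RALF1, a peptide that inhibits root growth, was 1.48-fold lower. Of 23 clock genes 4 were higher and 0 lower (0 lower also at an unadjusted p under 0.05 and by DESeq2), among them LCL1 (1.54-fold) and RVE1 (1.43-fold), with 1 higher without snap33 replicate 3 and 2 without wild-type replicate 2.

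Nutrient genes gave a mixed picture. Of 27 iron genes 3 were higher and 4 lower. NRAMP4, which releases iron from the vacuole, had 189, 185 and 193 CPM in snap33, against 99.3, 86.3 and 90.4 CPM in wild type (2.05-fold, adjusted p = 2.94e-05). The iron-deficiency regulators PYE and BTS were 1.85-fold and 1.66-fold higher. The ferritin FER1, an iron store, had 272, 120.2 and 188 CPM in snap33, against 305, 259 and 333 CPM in wild type, with an overlap and 1334 antisense bases, and FER3 was 1.43-fold lower. The 4 lower iron genes, which are these 2 ferritins and the vacuolar iron transporters AT1G76800 and AT1G21140, numbered 0 without wild-type replicate 1, wild-type replicate 3 or snap33 replicate 3, and 2 without wild-type replicate 2. The metallothionein MT2A, which binds copper and zinc, had 912, 819 and 913 CPM in snap33, against 486, 423 and 498 CPM in wild type (1.88-fold), and the copper importer COPT1 was 1.52-fold higher. NIA1, a nitrate reductase, had 164, 189.8 and 258 CPM in snap33, against 303, 304 and 386 CPM in wild type (1.62-fold lower), while NRT1.7, which reloads nitrate from old leaves, was 1.72-fold higher. APR3, of sulfate reduction, was 1.6-fold lower. Of 27 aquaporins 4 were higher and 1 lower, and the higher ones numbered 1 with a term for harvest day, without wild-type replicate 2 or 3 or without snap33 replicate 3, and 2 with upper-quartile scaling, without wild-type replicate 1 or without snap33 replicate 2.

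Among markers of other cell types, 3 of 11 phloem genes were higher, among them the sieve element proteins SEOR1 (1.88-fold) and SEOa (1.73-fold). TMM, a receptor-like protein of the stomatal lineage, had 55, 67.2 and 56 CPM in snap33, against 30.8, 23.3 and 32.4 CPM in wild type (2.06-fold, adjusted p = 5.1e-05), and it was the only called gene of 10 tested in the guard cell list. No marker was called in the lists of endodermis (9 tested, median log2 fold change -0.33), root cap (3, -0.38), xylem and secondary wall (13, -0.12), trichomes (9, -0.06) or meristems (4, 0.07), nor was any in those of tryptophan synthesis (10 tested) and germin-like proteins (7). Over these lists and the cellulose synthases, 63 genes in 8 lists, DESeq2 called 0, and 4 were higher and 2 lower at an unadjusted p under 0.05. Among division genes 2 of 45 cyclins and cyclin-dependent kinase genes were higher and 3 lower, and the lower ones numbered 0 with DESeq2, without wild-type replicate 2 or 3 or without snap33 replicate 1. Of 40 histone genes 2 were higher and 2 lower, and HIS1-3, a linker histone induced by drought, had 11.7, 10.6 and 17.4 CPM in snap33, against 3.13, 3.14 and 3.57 CPM in wild type (4.01-fold). Of 43 tested SNARE genes, SNAP33 was the only lower one, and 2 were higher, the syntaxin SYP23 (1.83-fold) and the vesicle SNARE VTI1B (1.61-fold).

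The 6 genes per direction with the highest mean CPM among those called under every setting were 1.27-fold to 2.11-fold higher or 1.28-fold to 1.53-fold lower. ECS1, a wall-associated protein, had 2049, 2035 and 1856 CPM in snap33, against 1005, 820.2 and 994 CPM in wild type (2.11-fold, adjusted p = 2.8e-07). THI1, which makes the thiazole part of thiamine, had 3826, 3468 and 3745 CPM in snap33, against 2976, 2864 and 2822 CPM in wild type (1.27-fold). The methionine synthase MS2 had 737, 811 and 782 CPM in snap33, against 1037, 1053 and 1174 CPM in wild type (1.4-fold lower), and the light-stress protein ELIP1 had 322, 411 and 390.2 CPM in snap33, against 584, 528 and 612 CPM in wild type (1.53-fold lower). In these 4 genes the groups did not overlap.

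The same contrast at 12 d gave 7826 called genes (41.6%). By the sowing labels, the snap33 plants of that group were sown on 9 March and harvested 32 to 34 days later, against 12 to 14 days for wild type. The age given for both groups is 12 d, so the labels conflict, and which of them is wrong is not known. If the sowing date is right, genotype and time since sowing cannot be told apart there. The difference between the effects at 5 d and 12 d was called for 4466 genes (23.7%). Of the 1547 genes higher at 5 d, 765 had a called difference, 626 of these with the more positive effect at 5 d. Those 626 include 172 genes that were called lower in snap33 at 12 d, whose effect at 12 d can be the larger in size. Of the 898 lower genes, 248 had a called difference, 216 with the more negative effect at 5 d, and 57 were called higher at 12 d. AOC1, an enzyme of jasmonate synthesis, had a log2 fold change of 3.53 at 5 d and 0.19 at 12 d. AT5G03545, annotated as expressed in phosphate starvation, had 0.94 and -2.33, the GDSL lipase AT2G03980 1.8 and -0.35, CYP710A2 1.54 and -0.39, and AT5G46890, a lipid-transfer-like protein, -0.75 and -2.87. In these 5 genes the effect was more positive at 5 d. It was more negative at 5 d for WRKY70, a factor of salicylate responses (0.86 and 4.47), AT2G32190 (1.07 and 4.50), MDHAR, which regenerates ascorbate (-0.91 and 2.29), GSTU24 (-0.68 and 1.18), GSTF7 (-1.10 and 2.62), CYP81F2 (-1.44 and 2.21) and the chaperone ATERDJ3B (-0.48 and 1.11), of which 5 had effects of opposite sign at the 2 ages.

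**Figure D5:**
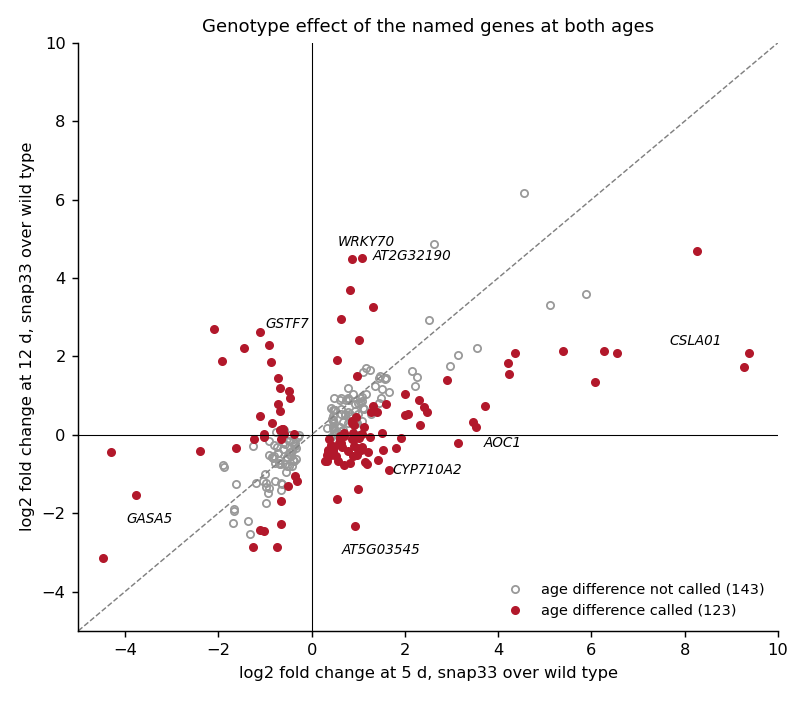
Log2 fold change of snap33 over wild type at 5 d (x axis) and at 12 d (y axis) for the 266 named genes; filled points mark the 123 genes whose difference between ages was called. AOC1 lies far right of the diagonal, at 3.53 and 0.19, and WRKY70 far above it, at 0.86 and 4.47.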

How the data were processed

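The deposited files, 1 for each of 12 libraries, hold raw read counts per gene, which the authors had not normalized. Reads were aligned with STAR to TAIR10, per the submitters' processing notes, and the closing lines of the files are those of htseq-count. No source used here gives versions, gene annotation or strand setting. Of 32744 genes, 32548 matched TAIR10.1, which was used for names, positions and promoters. Lines for unassigned reads (10% to 11.6% of each 5 d library) were left out.

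Counts were analysed in R 4.3.3 with edgeR 4.0.16: low-count filter over 4 groups, TMM factors, 1 fit over 12 libraries and quasi-likelihood tests with Benjamini-Hochberg adjustment (called under 0.05). DESeq2 1.42.0 was an alternative. All replicate pairs differed beyond sampling noise (chi-square per degree of freedom 1.61 to 5.24). Intervals and floors cover counting error only. The lists and rules were chosen with earlier results of these data known. Named were SNAP33, 12 ranked genes per direction, up to 4 per list and direction (all where 1 or 2 were called), 6 per direction by age difference and 6 by abundance, giving 266 genes. Of these, 48 overlap another annotated gene.

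Replicate numbers pair the genotypes, since the labels give equal numbers the same harvest day. Deviations from the group means of equal-numbered libraries correlated at -0.06, -0.29 and -0.10, and those of other pairs at -0.16 to 0.23.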

Additional observations from a re-analysis of the deposited data

Results flagged for a closer look

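The effect of snap33 differed between 5 d and 12 d, by a test of the difference itself, for 4466 genes (edgeR quasi-likelihood test, Benjamini-Hochberg adjustment). Among the genes named for this difference, that of the log2 fold changes (5 d minus 12 d) was 3.34 for AOC1 (adjusted p = 4.39e-08), 3.27 for AT5G03545 (1.14e-07), 2.15 for AT2G03980 (6.49e-08), 2.12 for AT5G46890 (3.93e-06) and 1.93 for CYP710A2 (1.44e-07). It was -3.73 for GSTF7 (5.94e-09), -3.65 for CYP81F2 (1.61e-06), -3.61 for WRKY70 (5.08e-09), -3.43 for AT2G32190 (1.86e-07), -3.20 for MDHAR (2.4e-08), -1.85 for GSTU24 (1.44e-07) and -1.60 for ATERDJ3B (5.49e-07). By the sowing labels, the snap33 plants of the 12 d group had grown 32 to 34 days, against 12 to 14 days in wild type. Those labels conflict with the age of 12 d given for both groups. The part of a longer growth in the differences was not tested.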

How the results depend on the processing

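Of the counts over all genes, none changed direction. Leaving out 1 library at a time gave 1468 to 2120 called genes in place of 2445, 1018 to 1357 higher in place of 1547, and 403 to 763 lower in place of 898. With the replicate block, a term for harvest day, the calls numbered 1655, with 1166 higher and 489 lower. All other settings stayed within 1.5 times: DESeq2 called 2208 genes, the fit of only the 6 libraries 2696 and the fit with no filter 2660. The count of genes whose effect differed with age stayed between 3486 and 5141. For many lists, but not for all, counts that moved further stand beside them in the text. The cause was not tested. A 2-fold change at a few CPM is near the limit of this depth, so a gene that was not called is not shown to be equal in both genotypes.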

Other observations

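Groups taken by words of the annotation, chosen after the values of all genes had been seen, are given as a description. Of 63 tested genes annotated with ribosome assembly or the processing of ribosomal RNA, 30 were lower in snap33 (47.6%, against 4.77% of all tested genes) and 0 higher, with a median log2 fold change of -0.47 and 14 called under every setting. Their summed CPM averaged 2625 in snap33 and 3633 in wild type. FIB2, a fibrillarin that methylates ribosomal RNA, had 105, 125 and 93.4 CPM in snap33, against 205, 200 and 202 CPM in wild type (log2 fold change -0.91, SE 0.12, adjusted p = 6.82e-05, edgeR). NUC-L1, a nucleolin of the nucleolus, had 226, 232 and 223 CPM in snap33, against 321, 345 and 309 CPM in wild type. The NOP56-like gene AT3G05060 had 136, 137 and 151 CPM in snap33, against 218, 248 and 237 CPM in wild type. No library of 1 genotype reached the range of the other in these genes. Of 72 translation initiation and elongation factors 11 were lower (15.3%) and 1 higher, with 3 of the lower ones called under every setting and a median log2 fold change of -0.20. Of 23 RNA helicases of the DEA(D/H)-box type 9 were lower (39.1%, median log2 fold change -0.37), with 0 called under every setting.

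Of 53 calcium-binding EF-hand proteins 13 were higher (24.5%, against 8.22% of all tested genes) and 1 lower. Of the higher ones 9 were called under every setting, and the median log2 fold change of the group was 0.12. CML41, a calmodulin-like protein, had 23.3, 21.6 and 17.9 CPM in snap33, against 3.13, 1.76 and 2.01 CPM in wild type (9.11-fold, adjusted p = 4.59e-08). TCH3, a touch-induced calmodulin-like protein, had 151, 174 and 131 CPM in snap33, against 70.1, 90.8 and 82.6 CPM in wild type. Of 8 zinc finger proteins of the A20/AN1 type 6 were higher (75%), as were 6 of 15 remorins (40%), proteins of plasma membrane domains. In each group 3 were called under every setting, and the median log2 fold changes were 0.44 and 0.05. Of 54 bifunctional inhibitor and lipid-transfer proteins 15 were lower (27.8%, against 4.77% of all tested genes, 7 under every setting) and 1 higher. The group as a whole differed little, with a median log2 fold change of -0.08 and summed CPM of 6598 in snap33 and 6678 in wild type. Among the lower ones, AT4G12500 had 3.96, 4.56 and 5.01 CPM in snap33, against 14.7, 10 and 10.7 CPM in wild type.

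Pairs were formed of tested genes that follow each other along a chromosome and whose product names begin alike. Where both genes were called, they had the same direction in 36 pairs and opposite directions in 10. Pairs without calls in both genes were not counted, so these numbers are a description and not a share. In 3 of the opposite pairs both genes were called under every setting. These were GSTF7 and GSTF6, the nucleoside phosphatases AT1G14240 (log2 fold change -1.79) and AT1G14250 (6.08), and the GDSL lipases GLL22 (-0.72) and AT1G54010 (0.61).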
